A study of Mus musculus with 12 samples.

Results

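The erythroid transcription factors described here are the 10 genes Gata1, Gata2, Klf1, Tal1, Nfe2, Gfi1b, Zfpm1, Lmo2, Lyl1 and Bcl11a, taken by gene symbol. All 10 were among the 12199 genes of the count table and all 10 passed the low-count filter, which left 12175 genes tested. They were measured by RNA-Seq of whole bone marrow (BM) from C57BL/6 mice of 4 genotypes. WT mice carried no mutant allele. DF mice were Dnmt3aFlox/+:MxCre with Flt3 ITD/+, TF mice were Tet2+/- with Flt3ITD/+, and TFD mice carried all of these alleles together with MxCre. Flt3 ITD is an activating internal duplication of a receptor tyrosine kinase, and Tet2 and Dnmt3a encode enzymes that remove and add DNA methylation. The labels describe the mutant marrow as leukemic and give no treatment, and the study's methods give poly(I:C) to all experimental animals, WT included. Poly(I:C) induces an interferon response, which switches on the Mx1 promoter that drives Cre, in tissues beyond blood as well. The Tet2 and Flt3 alleles were not under Cre control, and WT mice came from a core facility. There were 3 WT, 3 DF, 3 TF and 2 TFD libraries, and TFD replicate 3 was not analysed here. The study describes its data points as individual mice, the labels do not say this of the libraries, and p-values measure the spread between these libraries.

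Red cell development is directed by a small set of DNA-binding proteins that work as complexes. GATA1 takes over from GATA2 as progenitors commit to the erythroid and megakaryocytic lines, ZFPM1 (FOG1) is its cofactor, TAL1 or its relative LYL1 binds DNA with an E protein, and LMO2 bridges TAL1 and GATA1 through LDB1. KLF1 activates adult globin and red cell membrane genes, GFI1B is a repressor that recruits histone-modifying enzymes, NFE2 is the hematopoietic subunit of the NF-E2 dimer used in globin transcription and platelet release, and BCL11A silences fetal-stage globin genes and is also needed in B cells and plasmacytoid dendritic cells. Several of these genes are active outside the erythroid line, GATA2 in stem cells and mast cells and LMO2 and LYL1 in immature hematopoietic cells.

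The libraries held 8274153 to 15900904 counts over the table. Whole-gene counts of Tet2 and Dnmt3a overlapped between WT and the genotypes in which each is targeted. Tet2 was at 136.0 to 205.0 CPM (counts scaled to a common library size with TMM factors) in TF and at 147.7 to 169.0 CPM in WT. Dnmt3a was at 38.01 to 46.4 CPM in DF and at 30.9 to 57.8 CPM in WT. It was at 57.7 to 86.2 CPM in TF, where it is not targeted, above every DF library, and at 54.4 to 58.6 CPM in TFD, and reads over a deleted stretch were not counted apart from the rest of the gene. More Xist than Ddx3y counts were present in WT replicate 3, TF replicate 3 and TFD replicate 2 but in no DF library, and DF replicate 1 held 538 Xist counts beside 1628 Ddx3y counts. The label names mononuclear cells, yet 10 neutrophil marker genes summed to between 24806 and 82244 CPM in the 11 libraries. TF replicate 3 stood apart from the other TF libraries. Its 36 measured erythroid target genes summed to 4148 CPM, against 1500 and 1862 CPM in TF replicates 1 and 2 and 4632 to 5575 CPM in WT, and its B cell markers summed to 131 CPM against 29.0 and 30.5 CPM. Results for several factors and gene lists are therefore also given without it. It was singled out after its values were seen, so p-values and calls of fits without it are descriptions only.

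Which factors differ between mutant and WT marrow was asked first. Of the 10 factors, 6 were lower and 2 higher in DF, 6 were lower and 1 higher in TF, and 5 were lower and 1 higher in TFD, by edgeR's quasi-likelihood test at a Benjamini-Hochberg adjusted p under 0.05. Of all genes tested, 16.6% were called lower and 21.0% higher in DF, 15.6% and 19.0% in TF, and 11.6% and 14.7% in TFD. Gata1, Klf1, Tal1, Gfi1b and Zfpm1 were called lower in each mutant genotype, as were 7.9% of all genes. Lyl1 was called higher in each, as were 11.1% of all genes. The median log2 fold change of the 10 factors was -1.84 in DF, -1.18 in TF and -1.14 in TFD, beside 0.055, 0.018 and 0.007 over all genes. DF libraries lay apart from WT for 7 factors on the lower side and 2 on the higher, where 22.4% and 28.9% of all genes did. In TF this held for 3 and 1 (22.9% and 26.1% of all genes), and in TFD for 7 and 1 (23.4% and 26.0%). The 3 contrasts share the WT libraries. In whole marrow, fewer cells of a type and less RNA per cell cannot be told apart. In TF, 8 factors instead of 7 were called without TF replicate 3, and 4 without TF replicate 1, TF replicate 2, WT replicate 1 or WT replicate 3. Of all genes, 35.4% were called without TF replicate 3 instead of 34.6%. Without TF replicate 1, TF replicate 2, WT replicate 1 or WT replicate 3 the share was 23.4%, 25.8%, 29.8% and 28.9%. Where 1 TFD library is left out here and below, the other is assumed to vary like the libraries of the other genotypes.

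**Figure D1:**
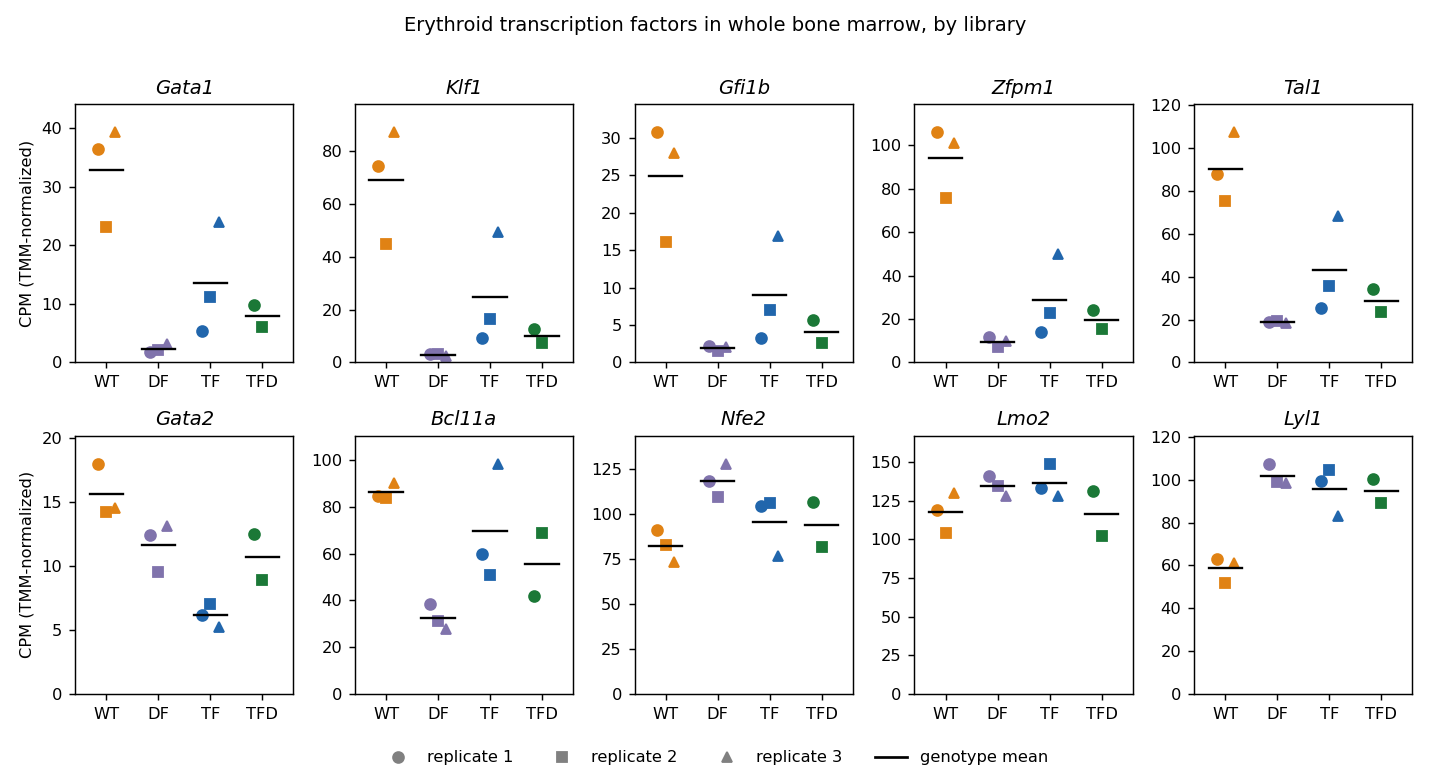
Level of each factor in every library, as TMM-normalized CPM on a linear axis from 0; symbols mark the replicate number and bars the genotype mean. Gata1, Klf1, Gfi1b, Zfpm1 and Tal1 were lowest in DF, TF replicate 3 lay nearest WT for these 5 genes, and Lyl1 was higher in each mutant library (82.9 to 107.6 CPM) than in WT (51.6 to 62.8 CPM).

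The 5 factors that fell in each mutant genotype were examined for shared letters upstream of their starts, with Lyl1, which rose, for contrast. Windows of 250 bases before the RefSeq start (GRCm38.p6, the build of the files, mm10) were found for 8 of the 10 factors, 10 windows in all; Nfe2 and Lmo2 had none. Both strands were searched for the GATA motif (AGATAA, or TGATAA with the other first base, and likewise AGATAG or also TGATAG with a final G), the KLF1 motif CCNCNCCC, the E-box CAGNTG and the NF-E2 motif TGANTCA, which 26.5%, 45.9%, 44.8% and 6.75% of 32851 such windows hold. The windows of Gata1, Klf1, Gfi1b and Lyl1 are shown 5′ to 3′ on the gene's strand, ending before the first counted exon base (for Klf1, 54 bases before the RefSeq start), with GATA and KLF1 matches in capitals. They lie at Gata1 (minus strand, chrX:7967911-7968160), Klf1 (plus strand, chr8:84901732-84901927), Gfi1b (minus strand, chr2:28621983-28622232) and Lyl1 (plus strand, chr8:84701207-84701456).
Gata1: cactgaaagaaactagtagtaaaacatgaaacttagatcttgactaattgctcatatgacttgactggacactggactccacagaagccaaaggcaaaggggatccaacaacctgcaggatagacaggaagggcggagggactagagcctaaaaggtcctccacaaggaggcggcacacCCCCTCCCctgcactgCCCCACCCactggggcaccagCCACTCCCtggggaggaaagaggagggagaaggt
Klf1: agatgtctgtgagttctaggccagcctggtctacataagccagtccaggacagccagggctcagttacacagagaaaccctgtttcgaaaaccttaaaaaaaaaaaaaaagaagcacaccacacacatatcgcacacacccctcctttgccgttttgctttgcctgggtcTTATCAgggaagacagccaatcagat
Gfi1b: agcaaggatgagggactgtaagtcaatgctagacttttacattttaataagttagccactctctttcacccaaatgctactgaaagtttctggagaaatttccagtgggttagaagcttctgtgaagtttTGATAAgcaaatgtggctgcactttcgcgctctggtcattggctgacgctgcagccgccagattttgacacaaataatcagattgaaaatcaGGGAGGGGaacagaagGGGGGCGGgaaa
Lyl1: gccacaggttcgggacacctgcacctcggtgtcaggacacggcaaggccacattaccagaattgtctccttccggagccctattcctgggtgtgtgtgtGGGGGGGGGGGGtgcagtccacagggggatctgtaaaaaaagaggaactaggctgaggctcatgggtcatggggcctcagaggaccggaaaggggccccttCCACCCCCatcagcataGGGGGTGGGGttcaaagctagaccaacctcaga
The Gata1 window held 3 KLF1 matches and no GATA match. The Klf1 window held a GATA match at -80 to -75, the Gfi1b window one at -120 to -115 and the first of the Tal1 windows one at -205 to -200, counted from the RefSeq start. Gfi1b also had 2 KLF1 matches, Zfpm1 had 4 and the other Tal1 window had 4. Gata2 had 1 and 6 in its windows, while Lyl1 and Bcl11a, which moved in opposite directions, had 8 each; 5 of the 6 in Gata2 and 5 of the 8 in Lyl1 were overlapping reads of one run of G. An E-box was present in the Lyl1 window and in the full Klf1 window, where it lies at -59 to -54 and so runs past the stretch shown, and in no other of the 10 windows, and no window held the NF-E2 letters. A match is a description of the sequence and not a bound site.

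Gata1 (chrX:7959260-7967910, minus strand, the span of its counted exons), the factor that commits progenitors to the red cell and platelet lines, was at 36.4, 23.0 and 39.3 CPM in WT replicates 1, 2 and 3. It was at 1.75, 2.06 and 3.07 CPM in DF, 5.33, 11.2 and 24.0 CPM in TF and 9.76 and 5.97 CPM in TFD. All DF and TFD libraries lay below WT, whereas TF replicate 3 lay just above WT replicate 2. Gata1 was 14.6-fold lower in DF (log2 fold change -3.87 ± 0.48 (SE), adjusted p = 7.46e-05). It was 2.46-fold lower in TF (-1.30 ± 0.40, adjusted p = 0.0245) and 4.15-fold lower in TFD (-2.05 ± 0.48, adjusted p = 0.00734). The DF values rest on 22 to 32 counts per library. Gata1 lies on the X chromosome. With a sex term in the model, which rests on the other genotypes because no DF library had more Xist than Ddx3y counts, its log2 fold change in DF was -3.67 (adjusted p = 5.67e-05), and the part of sex in the result was not tested.

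Klf1 (chr8:84901928-84905295), the activator of adult globin genes, had the largest fold difference of the 10 factors between DF and WT. Its WT libraries were at 74.6, 45.0 and 87.3 CPM and its DF libraries at 3.25, 3.15 and 2.57 CPM. Values in TF were 9.13, 16.4 and 49.3 CPM, and those in TFD were 12.6 and 7.22 CPM. TF replicate 3 again overlapped WT and no DF or TFD library did. The decrease was 22.9-fold in DF (log2 fold change -4.52 ± 0.55, adjusted p = 6.81e-05), 2.79-fold in TF (-1.48 ± 0.45, adjusted p = 0.0235) and 6.88-fold in TFD (-2.78 ± 0.57, adjusted p = 0.00328).

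Gfi1b (chr2:28609450-28621982, minus strand), the GATA1-induced repressor of erythroid and megakaryocytic cells, showed the same order of genotypes at lower levels. WT libraries were at 30.8, 16.1 and 28.01 CPM and DF libraries at 2.22, 1.54 and 2.08 CPM. TF libraries were at 3.31, 6.95 and 16.9 CPM and TFD libraries at 5.63 and 2.58 CPM. The only overlap with WT was TF replicate 3 against WT replicate 2. Gfi1b was 12.96-fold lower in DF (log2 fold change -3.70 ± 0.52, adjusted p = 0.000185), 2.79-fold lower in TF (-1.48 ± 0.45, adjusted p = 0.0215) and 5.96-fold lower in TFD (-2.57 ± 0.55, adjusted p = 0.0044).

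Zfpm1 (chr8:122282141-122337247), the cofactor of GATA1, was at 106.1, 75.6 and 101.3 CPM in WT and at 11.6, 7.21 and 9.70 CPM in DF. TF libraries were at 14.1, 22.7 and 49.8 CPM, and TFD libraries at 24.3 and 15.2 CPM. Every mutant library lay below every WT library, TF replicate 3 included. The decrease was 9.999-fold in DF (log2 fold change -3.32 ± 0.38, adjusted p = 4.79e-05), 3.29-fold in TF (-1.72 ± 0.35, adjusted p = 0.00265) and 4.75-fold in TFD (-2.25 ± 0.42, adjusted p = 0.00189).

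Tal1 (chr4:115056426-115071755), the E-box binding partner in the GATA1 complex, fell least of the 5 in DF. It was at 88.2, 75.5 and 107.6 CPM in WT and at 18.9, 19.2 and 18.2 CPM in DF. In TF it was at 25.5, 35.6 and 68.6 CPM and in TFD at 34.1 and 23.5 CPM. No mutant library reached the lowest WT library, and the 3 DF libraries lay within 1 CPM of each other. Tal1 was 4.82-fold lower in DF (log2 fold change -2.27 ± 0.29, adjusted p = 0.0001), 2.10-fold lower in TF (-1.07 ± 0.28, adjusted p = 0.0105) and 3.13-fold lower in TFD (-1.65 ± 0.33, adjusted p = 0.00285). Groups that do not overlap, with all 8 mutant libraries below WT, were found for 3 factors (Tal1, Zfpm1 and Gata2) and for 11.8% of all genes.

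For 3 of these genes the TF call was lost with any of 4 libraries left out, while the log2 fold change was -1.23 to -0.91 for Gata1, -1.43 to -1.08 for Klf1 and -1.41 to -1.08 for Gfi1b. Adjusted p for Gata1 was 0.0638 without TF replicate 1, 0.0765 without TF replicate 2, 0.0626 without WT replicate 1 and 0.0751 without WT replicate 3. For Klf1 the corresponding values were 0.063, 0.0816, 0.0554 and 0.0756, and for Gfi1b 0.0605, 0.0716, 0.0692 and 0.059. Without TF replicate 3 the decreases were larger, with log2 fold changes of -2.0 for Gata1, -2.44 for Klf1, -2.29 for Gfi1b and -2.36 for Zfpm1. In TFD, Gata1 was at adjusted p = 0.0642 without TFD replicate 2, with 1 TFD library left, and Gfi1b changed by -3.27 (adjusted p = 0.0132) without TFD replicate 1. Zfpm1 and Tal1 remained called in TF and in TFD under each library left out.

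Gata2 (chr6:88198664-88207032), which acts in stem cells, early progenitors and mast cells, did not follow Gata1. WT libraries were at 17.98, 14.2 and 14.5 CPM, DF at 12.4, 9.52 and 13.1 CPM, TF at 6.14, 7.04 and 5.199 CPM and TFD at 12.5 and 8.91 CPM. Each of the 8 mutant libraries was below WT, and the 3 TF libraries, TF replicate 3 among them, were the lowest of all. Gata2 was 2.54-fold lower in TF (log2 fold change -1.35 ± 0.20, adjusted p = 0.000294). The change was -0.43 ± 0.19 in DF (adjusted p = 0.0896) and -0.54 ± 0.21 in TFD (adjusted p = 0.079), neither of which passed. The DF change passed with only DF and WT in the fit (adjusted p = 0.042), with a sex term (0.0326) and within libraries with more Ddx3y than Xist counts (0.0469). The TFD change was -0.81 (adjusted p = 0.0496) without TFD replicate 1 and -0.31 (adjusted p = 0.389) without TFD replicate 2, each of which leaves 1 TFD library, and it passed with no other library left out. Of 8 mast cell and basophil markers, 5 fell in TF and 1 in each of DF and TFD, and their sums were 620 to 858 CPM in WT, 461 to 638 CPM in DF, 298 to 407 CPM in TF and 350 to 525 CPM in TFD. Cpa3, a mast cell protease, changed by -0.95 in TF (adjusted p = 0.018) and Ms4a2, a chain of the IgE receptor, by -1.11 (adjusted p = 0.0028). Their part in the Gata2 result was not tested.

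Bcl11a (chr11:24078056-24173558), the globin-switching repressor also used by lymphoid cells, was lower in DF. It was at 84.6, 83.8 and 90.3 CPM in WT, 38.3, 31.1 and 27.7 CPM in DF, 59.8, 50.9 and 98.5 CPM in TF and 42.0 and 69.0 CPM in TFD. All DF and TFD libraries were below WT, and TF replicate 3 exceeded every WT library. Bcl11a was 2.66-fold lower in DF (log2 fold change -1.41 ± 0.24, adjusted p = 0.00061). In TF the change was -0.31 ± 0.23 (adjusted p = 0.314) with TF replicate 3 and -0.64 (adjusted p = 0.0175) without it. In TFD it was -0.64 ± 0.26 (adjusted p = 0.088), and 2 of 11 fits with a library left out passed. It was -1.03 (adjusted p = 0.0344) without TFD replicate 2 and -0.32 (adjusted p = 0.488) without TFD replicate 1, with 1 TFD library left each time. The TFD change also passed by DESeq2 (0.0445), without TF replicate 3 (0.0203), with only TFD and WT in the fit (0.0269), with a sex term (0.00602) and within libraries with more Ddx3y than Xist counts (0.00378), but not with the replicate number as a block (0.162). The 12 B cell markers summed to 559 to 737 CPM in WT, 19.7 to 31.8 CPM in DF, 29.0 to 131 CPM in TF and 25.0 to 25.4 CPM in TFD, and each library had a sum above 0. Of 10 plasmacytoid dendritic cell markers, 8 fell and 1 rose in DF, 3 fell and 2 rose in TF, and 5 fell and 1 rose in TFD; without TF replicate 3, 5 fell in TF and 7 in TFD. TF replicate 3 had the highest sum of that list (674 CPM, against 291 to 457 CPM in the other 10 libraries). Whether these cells account for the Bcl11a levels was not tested. Its exons share 316 bases with an antisense gene in GENCODE, and whether the counting used strand is not given in the sources used here.

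Lyl1 (chr8:84701457-84704716), the relative of Tal1, rose. It was at 62.8, 51.6 and 61.3 CPM in WT, 107.6, 98.7 and 98.6 CPM in DF, 99.3, 104.6 and 82.9 CPM in TF and 100.3 and 89.1 CPM in TFD. The lowest mutant library, TF replicate 3, was above the highest WT library, a separation in which 16.1% of all genes shared. The increase was 1.73-fold in DF (log2 fold change 0.79 ± 0.12, adjusted p = 0.000253), 1.63-fold in TF (0.70 ± 0.12, adjusted p = 0.000725) and 1.62-fold in TFD (0.69 ± 0.13, adjusted p = 0.00188). Its counted exons share 5 bases with exons of Nfix on the other strand in GENCODE.

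Nfe2 (chr15:103248212-103258403, minus strand) was higher in DF. WT libraries were at 91.4, 82.7 and 73.6 CPM, DF at 118.3, 109.5 and 128.2 CPM, TF at 104.4, 106.0 and 77.0 CPM and TFD at 106.8 and 81.5 CPM. All DF libraries were above WT, and TF and TFD overlapped it. The log2 fold change in DF was 0.52 ± 0.15 (adjusted p = 0.0137), which did not pass without DF replicate 3 (0.0614) or without WT replicate 3 (0.0826). In TF and TFD it was 0.21 and 0.19 (adjusted p = 0.273 and 0.419). Lmo2 (chr2:103957995-103981878), the bridging protein, was at 118.9, 103.9 and 129.8 CPM in WT, 141.1, 134.6 and 127.9 CPM in DF, 133.0, 149.1 and 128.2 CPM in TF and 131.0 and 102.2 CPM in TFD. Its libraries overlapped in each comparison with WT. The differences from WT had 95% intervals of -0.07 to 0.45 log2 units in DF, -0.04 to 0.48 in TF and -0.30 to 0.28 in TFD, so a change of 2-fold was outside them.

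**Figure D2:**
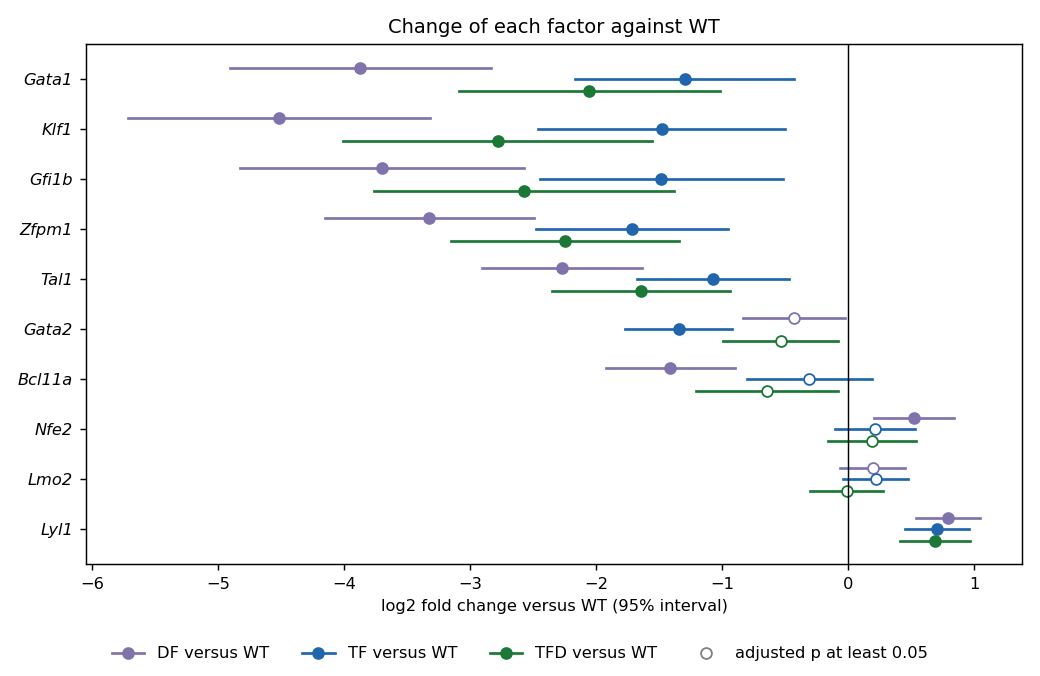
Log2 fold change of each factor in DF, TF and TFD against WT, with the 95% interval of edgeR's quasi-likelihood fit; filled points have an adjusted p under 0.05. Gata1, Klf1, Gfi1b, Zfpm1 and Tal1 lie left of 0 in each genotype, furthest in DF (-4.52 for Klf1), and Lyl1 lies right of 0 in each.

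Whether the factors differ between the mutant genotypes was asked next. Between DF and TF, 6 factors were lower and 1 was higher in DF, where 4.27% and 1.67% of all genes were called. Klf1 was 8.19-fold lower in DF than in TF (log2 fold change -3.03 ± 0.55, adjusted p = 0.00822) and Gata1 5.95-fold lower (-2.57 ± 0.48, adjusted p = 0.01). Gfi1b differed by -2.21 ± 0.53 (adjusted p = 0.0299), Zfpm1 by -1.61 ± 0.38 (0.0284), Tal1 by -1.20 ± 0.29 (0.0311) and Bcl11a by -1.10 ± 0.23 (0.0188). Gata2 went the other way and was higher in DF by 0.92 ± 0.20 (adjusted p = 0.0189). DF and TF libraries did not overlap for any of these 7 genes, nor for Nfe2 (0.31 ± 0.14, adjusted p = 0.273). On the lower side this made 6 factors and on the higher side 2, beside 12.1% and 13.7% of all genes. The number of factors called was 3 without DF replicate 1, 1 without DF replicate 2, 2 without DF replicate 3 and 3 without TF replicate 3, and it was 4 with a sex term. The share of all genes called was 3.16%, 1.39%, 2.07%, 2.79% and 4.25% in these fits, against 5.94% in the fit above. Without DF replicate 2 the log2 fold change stayed at -2.50 for Gata1 and -3.07 for Klf1. Without TF replicate 3, Klf1 differed by -2.07 (adjusted p = 0.00465) and Gata1 by -1.87 (0.014).

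Between DF and TFD, none of the 10 factors and 0.0% of all genes were called by edgeR, and none of the factors by DESeq2. At an unadjusted p under 0.05 there were 4 factors and 14.2% of all genes. The difference, DF minus TFD, was -1.82 log2 units for Gata1 (95% interval of the difference -2.96 to -0.67, adjusted p = 0.174) and -1.73 for Klf1 (-3.06 to -0.41, adjusted p = 0.244). Without TF replicate 3, which does not enter this contrast but shares its estimate of the spread, Gata1, Klf1 and Zfpm1 were called (adjusted p = 0.023, 0.023 and 0.049) with log2 fold changes of -1.82, -1.74 and -1.08. With all libraries these fold changes were -1.82, -1.73 and -1.07, so they hardly moved. Without that library 1.86% of all genes were called. With only DF and TFD in the fit, 2 factors and 1.11% of all genes were called. Libraries of DF lay below those of TFD for 6 factors and above them for 1, where 14.1% and 14.9% of all genes did so. Between TF and TFD, none of the factors was called by either tool, where edgeR called 0.00821% of all genes higher and 0.00821% lower, and 2 factors and 8.77% of all genes had an unadjusted p under 0.05. The difference for Gata2, TF minus TFD, was -0.81 ± 0.22 (adjusted p = 0.269) with no overlap of libraries, as for 10.3% of all genes, and no factor lay wholly above TFD, as 12.0% of all genes did. The difference for Klf1 was 1.301 ± 0.55 (adjusted p = 0.532).

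The levels were then ordered within each genotype as RPKM, reads per kilobase of counted exon scaled to library size, which allows genes to be compared. In WT, Lmo2 was highest (61.9 ± 6.8 RPKM, SD), followed by Klf1 (45.0 ± 14.1), Lyl1 (32.5 ± 3.4), Nfe2 (29.6 ± 3.2), Zfpm1 (27.9 ± 4.8), Tal1 (21.2 ± 3.8), Gata1 (17.3 ± 4.6), Gfi1b (13.7 ± 4.3) and Bcl11a (12.3 ± 0.51). Gata2 was lowest at 4.801 ± 0.64 RPKM. Neighbours in this order overlapped between libraries except Bcl11a and Gata2. In DF the order had 3 factors far above the rest, Lmo2 at 70.8 ± 3.5 RPKM, Lyl1 at 56.4 ± 2.9 and Nfe2 at 42.5 ± 3.4. The other 7 were between 1.07 (Gfi1b) and 4.62 (Bcl11a) RPKM. Klf1 went from the second highest level in WT to 1.95 ± 0.24 RPKM, the eighth, in DF, and Gata2 (3.59 ± 0.58 RPKM) had a higher level than Gata1 (1.20 ± 0.36 RPKM) there, with no overlap. In TF, Lmo2, Lyl1 and Nfe2 likewise led, and Gata2 was lowest at 1.89 ± 0.28 RPKM, below Gata1 at 7.10 ± 5.01. In TFD these 3 led as well, and the other 7 were between 2.25 (Gfi1b) and 7.91 (Bcl11a) RPKM.

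The balance of related factors within a library was described as the difference of their log2 CPM, a relative scale not corrected for gene length. Log2 CPM of Gata1 minus that of Gata2 spanned 0.69 to 1.44 over the WT libraries, -2.81 to -2.08 over DF, -0.20 to 2.20 over TF and -0.58 to -0.36 over TFD. DF and TFD lay below WT, and TF replicate 3 lay above every WT library (its Gata1 was at 24.0 CPM and its Gata2 at 5.199 CPM). WT exceeded the 8 mutant libraries by 1.72 on average, with p = 0.115 by a two-sided exact permutation test over 165 choices of the WT libraries. With each other library left out the exact p was 0.108 to 0.244. Without TF replicate 3 the difference was 2.13, given with no p because that library was singled out after its values were seen. For Tal1 against Lyl1, a pair chosen after its values were seen and so given with no p, WT libraries spanned 0.49 to 0.81, DF -2.51 to -2.36, TF -1.96 to -0.27 and TFD -1.92 to -1.56. Tal1 was thus above Lyl1 in each WT library and below it in each mutant library on the CPM scale. In RPKM, Tal1 was below Lyl1 in WT as well (17.7 to 25.2 against 28.6 to 34.9), so the crossing is not seen once gene length is counted.

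**Figure D3:**
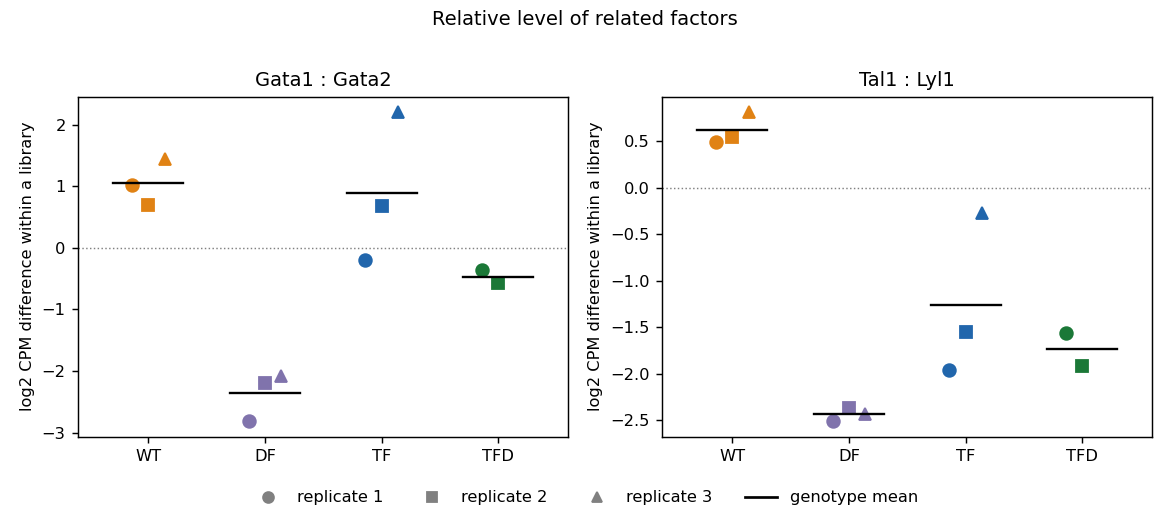
Log2 CPM of Gata1 minus Gata2 (left) and of Tal1 minus Lyl1 (right) in every library; symbols mark the replicate number and bars the genotype mean. DF is lowest in both panels (means of -2.36 and -2.44), and TF replicate 3 is the highest library for Gata1 against Gata2 (2.20).

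Genes that these factors are known to control in red cells also fell. Of 36 measured erythroid target genes, 34 fell in DF, 24 in TF and 29 in TFD, and none rose. The TF count was 31 without TF replicate 3, and it was 10, 9 and 13 when TF replicate 1, TF replicate 2 or WT replicate 3 was left out. In TFD, 17 fell without TFD replicate 2. The median log2 fold change of the list was -3.16 in DF, -1.001 in TF (-1.67 without TF replicate 3) and -1.70 in TFD. Ermap, a blood group antigen, changed by -4.69, -1.84 and -2.60 in DF, TF and TFD (adjusted p = 4e-05, 0.0071 and 0.0036). Alas2, the erythroid enzyme that starts heme synthesis, was at 36.0 to 44.9 CPM in WT and 6.51 to 10.8 CPM in DF, a change of -2.17 (adjusted p = 0.00071), and its changes in TF and TFD were 0.30 and -0.44 (adjusted p = 0.52 and 0.43). Its TF libraries spanned 28.5 to 84.5 CPM, from below WT to above it, so the sign of the TF change rests on the highest of them. Both Alas2 and Slc4a1, the anion exchanger band 3, were lower in DF than in TF (-2.47 and -2.57, each at adjusted p = 0.00381). Slc4a1 changed by -2.81 in DF (adjusted p = 0.000163), with -0.24 in TF and -0.88 in TFD (0.636 and 0.136). Its TF libraries spanned 116 to 377 CPM, beside 234 to 279 CPM in WT, so the TF value averages libraries on both sides of WT. Between DF and TF, 28 of the 36 genes were lower in DF and none was higher. Between DF and TFD, 0 were called by edgeR and 14 by DESeq2, and edgeR called 14 with a replicate block, 24 with only these genotypes in the fit and 26 without TF replicate 3. Globin transcripts had been depleted before sequencing, and none of 4 embryonic globin genes was in the table.

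Set against the summed erythroid target genes of the same library, a scale chosen after the values were seen, the factors differed. Log2 CPM of Tal1 minus that of the sum was -5.79 ± 0.14 (SD) in WT and -5.53 ± 0.12 in DF, whose libraries lay above WT as those of 95.8% of all genes did, and -5.84 ± 0.11 and -5.84 ± 0.12 in TF and TFD. For Gata1 it was -7.27 ± 0.35 in WT and -8.60 ± 0.42 in DF, with TF and TFD at -7.65 ± 0.42 and -7.73 ± 0.24. The Klf1 values were -6.22 ± 0.42 for WT, -8.18 ± 0.22 for DF, -6.86 ± 0.48 for TF and -7.40 ± 0.31 for TFD. Gfi1b was at -7.68 ± 0.48 in WT and -8.80 ± 0.40 in DF, and Zfpm1 at -5.73 ± 0.26 and -6.54 ± 0.47. For Klf1, Gata1, Gfi1b and Zfpm1 the DF libraries lay below all WT libraries on this scale, as did the TFD libraries for Klf1, Gfi1b and Zfpm1 and the TF libraries for Zfpm1, where 1.67%, 2.02% and 1.95% of all genes lay below WT in DF, TFD and TF. The sum weights its most abundant genes, with Tfrc, the transferrin receptor, making up 14.3 to 18.5% of it in WT and 25.9 to 36.7% in DF. In DF the log2 of the sum differed from WT by -2.51, whereas the median log2 fold change of the listed genes was -3.16, close to the -3.32 of Zfpm1. A gene can lie below WT on this scale only where it fell further than the sum. The share of the target genes that did so was not counted, so the factors are not set apart from those genes here. Lyl1 was at -6.40 ± 0.17 in WT and -3.10 ± 0.19 in DF.

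**Figure D4:**
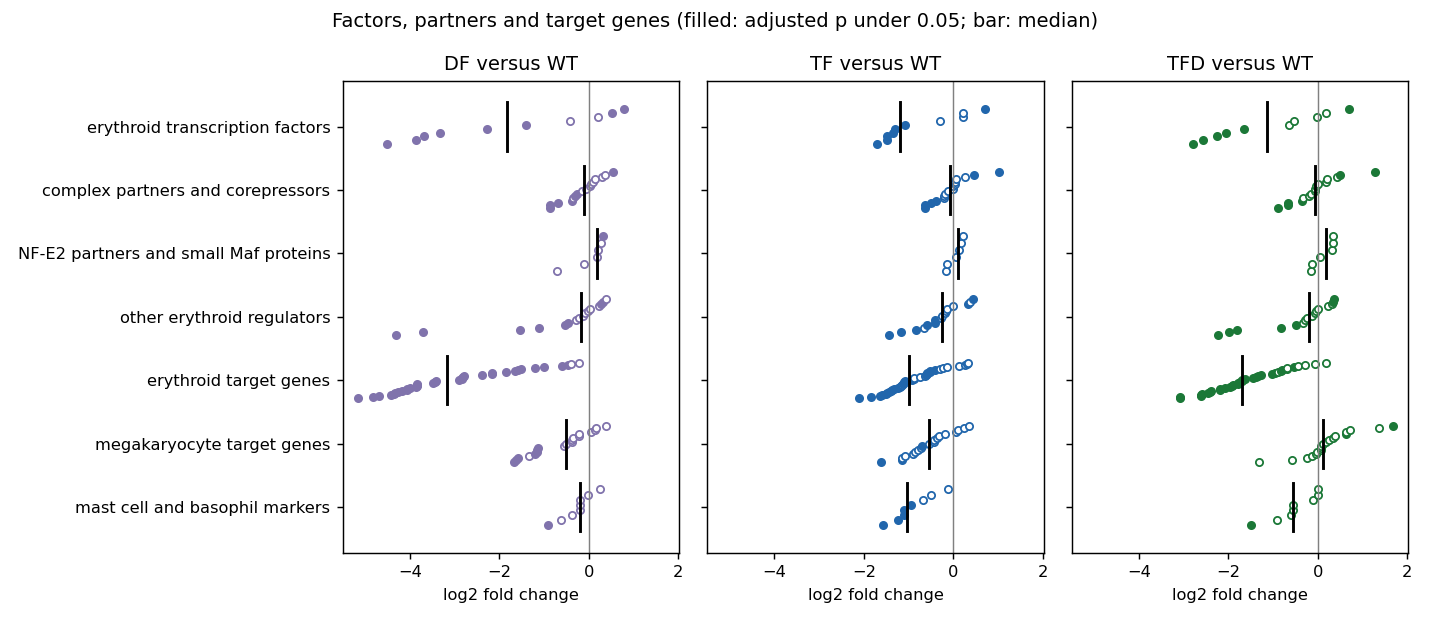
Log2 fold changes against WT of the erythroid transcription factors and of gene lists around them, one point per gene, on a common axis; filled points have an adjusted p under 0.05 and bars mark list medians. Most erythroid target genes lie left of 0 (medians -3.16 in DF, -1.001 in TF and -1.70 in TFD), while medians of complex partners and NF-E2 partners lie between -0.12 and 0.19.

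Partners of these factors had medians near 0, although more of the complex partners were called lower than higher. Of 16 complex partners and corepressors, 1 rose and 6 fell in DF, and 2 rose and 4 fell in each of TF and TFD, with medians of -0.12, -0.07 and -0.07. Of all genes, 21.0% rose and 16.6% fell in DF, 19.0% and 15.6% in TF, and 14.7% and 11.6% in TFD. Tcf3, the E protein that pairs with TAL1, fell by 0.87, 0.63 and 0.88 on the log2 scale in DF, TF and TFD (adjusted p = 0.00069, 0.0057 and 0.0022), and the related Tcf12 fell by 0.69, 0.49 and 0.67. Ldb1, which dimerizes the complex, was lower in DF (-0.32, adjusted p = 0.045), and its changes in TF and TFD, -0.21 and -0.33, did not pass. Ssbp3, which stabilizes LDB1, fell by 0.88, 0.63 and 0.66. Rcor1, the corepressor bound by GFI1B, fell by 0.26, 0.40 and 0.35, and Kdm1a, the demethylase in that complex, changed by 0.10, 0.07 and 0.18 with no call. Cbfa2t3 (ETO2), a corepressor of TAL1, rose by 1.01 in TF and by 1.27 in TFD (adjusted p = 0.0169 and 0.00992), with 0.36 in DF (adjusted p = 0.34). Its 2 TFD libraries were far apart, at 63.3 and 152.8 CPM, beside 42.7 to 45.6 CPM in WT. Cbfb rose by 0.53, 0.47 and 0.51. Of 6 measured NF-E2 partners and related proteins, Mafg, a small Maf protein, rose in DF (0.32, adjusted p = 0.045), and no other gene of the list was called in any mutant genotype against WT.

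Among 16 other erythroid regulators, 6 fell and 2 rose in DF and in TF, and 5 fell and 2 rose in TFD. Epor, the erythropoietin receptor, was at 16.8 to 24.9 CPM in WT, 0.84 to 1.29 CPM in DF, 3.23 to 14.5 CPM in TF and 4.19 CPM in both TFD libraries. All mutant libraries were below WT, with log2 fold changes of -4.32, -1.44 and -2.23 (adjusted p = 6.1e-05, 0.018 and 0.0059). Sox6, which cooperates with BCL11A in globin silencing, fell by 3.72, 1.17 and 1.99 (adjusted p = 5e-05, 0.028 and 0.0059). It was at 56.0 to 71.8 CPM in WT and 13.2 to 53.0 CPM in TF, so the TF changes of Epor and Sox6 average widely spread libraries. Ikzf1 fell by 0.53, 0.58 and 0.49 and the cell cycle regulator E2f4 by 1.11, 0.84 and 0.82. Stat5a, which carries the signal of the erythropoietin receptor and of other cytokine receptors, rose by 0.28, 0.45 and 0.37, and Stat5b rose by 0.31, 0.32 and 0.35. Epor and Sox6 were also lower in DF than in TF (-2.88 and -2.55, adjusted p = 0.0095 and 0.0064).

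Factors of other lines moved in both directions. Of 10 such genes, 3 rose and 4 fell in DF, 3 rose and 3 fell in TF, and 2 rose and 3 fell in TFD. Cebpa, the granulocyte-monocyte regulator, was at 52.0 to 60.04 CPM in WT and 121 to 185 CPM in the mutant libraries, and it rose by 1.53, 1.27 and 1.52 in DF, TF and TFD (adjusted p = 5.9e-06, 1.6e-05 and 1.2e-05). Irf8, a monocyte and dendritic cell factor, rose by 1.31, 1.71 and 1.43. Spi1 (PU.1), which opposes GATA1, rose in DF (0.70, adjusted p = 0.0031) and TF (0.43, adjusted p = 0.04), and its change in TFD was 0.28 (adjusted p = 0.23). The B cell factors Pax5 and Ebf1 fell in each mutant genotype, with log2 fold changes of -7.53, -4.77 and -7.98 for Pax5 and of -6.42, -5.49 and -6.95 for Ebf1. Pax5 was at 0.0 to 0.40 CPM in DF, 0.08 to 3.28 CPM in TF and 0.0 to 0.27 CPM in TFD, so the size of its changes is uncertain. Of 19 measured megakaryocyte genes, 7 fell in DF, 3 in TF (1 without TF replicate 3) and none in TFD, where 2 rose (0 to 5 over the alternatives); Pf4, a platelet chemokine, changed by -1.16 in DF (adjusted p = 0.038), and by -0.85 and 0.39 in TF and TFD (adjusted p = 0.11 and 0.53). Of 8 monocyte markers, DF had 7 that rose, TF 8 and TFD 6. The monocyte sums were 5360 to 6751 CPM in the mutant libraries and 1888 to 2070 CPM in WT, and their part in the levels of the factors was not tested.

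The remaining lists were mixed. Of 8 stem and progenitor markers, 2 rose and 3 fell in DF, 1 rose in TF (2 rose and 2 fell without TF replicate 3), and 2 rose and 2 fell in TFD; Cd34, a progenitor surface protein, rose by 1.96, 1.86 and 1.79, whereas Ly6a and Slamf1, which mark stem cells, fell in DF (-2.61 and -2.95) and TFD (-2.02 and -1.93). Of 10 neutrophil markers, 2 rose in DF, 3 fell in TF, and 1 rose and 1 fell in TFD, where 0 to 6 fell over the alternatives. Of 9 eosinophil markers, 2 rose and 2 fell in DF and in TF and 2 fell in TFD. Of 5 measured endothelial markers, which would come from cells that also use Tal1 and Gata2, 1 rose and 1 fell in DF, 1 rose in TF and 2 rose in TFD, with sums of 65.1 to 71.5 CPM in WT and 70.3 to 93.5 CPM in the mutants.

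Finally, the 3 genes whose levels over the 11 libraries were nearest to each called factor were found, by the root mean square difference of log2 CPM after each gene was centred on its mean, among 11183 genes. The libraries share the genotype differences, so these are descriptions. Gata1 was nearest to Sptb, Hemgn and Kel (0.23, 0.24 and 0.26 log2 units), and Klf1 to Cldn13, Aqp1 and Car2 (0.19, 0.20 and 0.23). Genes near Tal1 included Arhgef12 (0.14) and the heme synthesis gene Uros (0.14). Gfi1b and Zfpm1 were 0.29 apart, Zfpm1 being the gene nearest to Gfi1b, and both had Myh10 among their nearest 3. Gata2 was nearest to Slc18a2, Phospho1 and Slc12a5 (0.20, 0.21 and 0.23), with Nfe2, the nearest of the other factors, at 0.59. Nfe2 was nearest to Pstpip1, Ethe1 and Itm2b (0.06 to 0.07), Lyl1 to Slc37a4, Mtch1 and Dtnbp1 (0.07), and Bcl11a to 2310022B05Rik, Acss1 and Net1 (0.15 to 0.17).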

How the data were processed

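RNA was extracted from whole BM, depleted of globin transcripts and made into TruSeq Stranded TotalRNA libraries, 1 per sample. The authors aligned reads with STAR to mm10, assigned unique reads to refGene genes with featureCounts and kept genes above 0.5 CPM in more than 3 libraries, per the submitters' processing notes and the methods; tool versions and the strand setting are not given in the sources used here. The deposited table held raw counts per gene, which were tested, and log2 CPM, which equal edgeR's log2 CPM with TMM factors and a prior count of 0.25 to within 5e-09. Gene lengths in the deposited table gave RPKM.

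Counts of 12175 genes above 0.5 CPM in more than 3 of 11 libraries were fitted with edgeR 4.0.16 (R 4.3.3) by glmQLFit and glmQLFTest, with 1 mean per genotype, TMM factors (0.924 to 1.04) and Benjamini-Hochberg adjustment over all genes. A gene was called at adjusted p under 0.05. SE is the log2 fold change over the square root of F. DESeq2 1.42.0, library totals, RLE factors, no filter, 2-genotype fits, a replicate block, a sex term, libraries with more Ddx3y than Xist counts alone and each library left out were alternatives; the Tal1-to-Lyl1 difference and the target-list counts were chosen once values had been seen. The scripts were tested on simulated data. Libraries held 8274153 to 15900904 counts, and a DF library as few as 21 of Gfi1b.

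Factors and gene lists were chosen with earlier results of these data known. Named genes are the 10 factors, all genes of the regulator lists, the first 4 measured genes of other lists, and the 3 nearest genes of each called factor. Some genes that this rule names are not reported here.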

Additional observations from a re-analysis of the deposited data

Results flagged for a closer look

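The change from WT differed between DF and TF for 7 of the 10 factors, by a test of the DF versus TF difference itself (edgeR's quasi-likelihood test). These log2 differences, DF minus TF, were -2.57 for Gata1, -3.03 for Klf1, -1.20 for Tal1, -2.21 for Gfi1b, -1.61 for Zfpm1 and -1.10 for Bcl11a, all lower in DF, and 0.92 for Gata2, higher in DF. The TF libraries spread more than the DF libraries for Gata1, Klf1, Tal1, Gfi1b and Zfpm1, with TF replicate 3 lying nearest WT. Without it the differences of these genes were -1.87, -2.07, -0.70, -1.41 and -0.96, and Bcl11a and Gata2 differed by -0.77 and 0.82. The differences of Tal1, Gfi1b, Zfpm1 and Gata2 then no longer passed (adjusted p = 0.0739, 0.0988, 0.068 and 0.063). Those of Gata1 and Klf1 did not pass without DF replicate 2 (0.0654 and 0.0522). For Bcl11a this held without DF replicate 2 (0.0911) or DF replicate 3 (0.0786).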

How the results depend on the processing

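The number of factors called was the same or within 1.5 times of the value given in every comparison with DESeq2, library totals, RLE factors and no filter. With the replicate number as a block it was 8 for DF, 7 for TF and 6 for TFD against WT, 7 between DF and TF and 0 in the other 2 comparisons. Same-numbered libraries did not deviate together: over 15 pairs r was -0.299 to 0.247, and 4 of 11 libraries correlated best with their own number. With a sex term, 4 factors were called between DF and TF. Between DF and TFD, 2 were called with only these genotypes in the fit and 4 within libraries with more Ddx3y than Xist counts, where 1 TFD library is left and 1.23% of all genes were called. Leaving out each library gave 7 to 8 factors for DF, 4 to 8 for TF and 6 to 7 for TFD against WT, 1 to 7 between DF and TF, 0 to 3 between DF and TFD and 0 between TF and TFD. Over these fits 23.4% to 37.1% of all genes were called in TF versus WT and 1.39% to 7.68% between DF and TF. The Gata1-to-Gata2 difference was 1.41 to 2.13 and that of Tal1 to Lyl1 2.34 to 2.66 with each library left out. Causes were not tested.

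Directions reversed only for changes that had not passed. Within libraries with more Ddx3y than Xist counts, Lmo2 in TFD versus WT was 0.23, Lyl1 was -0.0365 in DF versus TF and -0.0178 in DF versus TFD, and Gata2 in DF versus TFD was -0.15. In TF versus TFD the values were -0.24 for Gata1, -0.16 for Tal1, -0.0267 for Nfe2, -0.14 for Gfi1b and -0.40 for Zfpm1. With the sex term, Gata2 in DF versus TFD was -0.0272, and Nfe2 and Lyl1 in TF versus TFD were -0.0362 and -0.0082. With a library left out, Nfe2 ranged from -0.019 to 0.38 and Lmo2 from -0.20 to 0.16 in TFD versus WT; Lmo2 from -0.0771 to 0.0428 and Lyl1 from -0.0051 to 0.16 in DF versus TF; Gata2 from -0.14 to 0.38 and Lyl1 from -0.014 to 0.19 in DF versus TFD; and Nfe2 from -0.17 to 0.23, Lyl1 from -0.0807 to 0.11 and Zfpm1 from -0.11 to 0.91 in TF versus TFD. Over all genes, library totals moved the split of calls from 2560 higher and 2023 lower to 1926 and 2622 in DF versus WT, and from 203 and 520 to 106 and 659 in DF versus TF. Over the alternatives, complex partners lower in DF numbered 3 to 8, other erythroid regulators lower in TF 2 to 6, mast cell markers lower in TF 2 to 6 and megakaryocyte genes lower in DF 2 to 9. Between DF and TFD, DESeq2 called 258 genes and edgeR 0, 226 without TF replicate 3. Between TF and TFD they called 131 and 2.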
